A study of Mus musculus with 16 samples.

Results

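Amino acid transporter genes were examined in mouse kidneys 24 h after unilateral ureteral obstruction (UUO), in wild-type (WT) and IL-33-deficient mice. The members were all genes in the deposited table whose symbol began with Slc1a, Slc3a, Slc6a, Slc7a, Slc36a, Slc38a or Slc43a followed by a digit, and 55 of the 18132 genes in the table met this rule. One of them, Slc7a6os, lies next to Slc7a6 and shares its name, but it is not a transporter, and it was kept because the symbol alone chose the members. The choice used no measured value. Slc3a1, Slc7a5 and Slc6a20a, which also belong to these families, were not analysed here.

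RNA from kidney tissue had been hybridised to Illumina MouseRef-8 v2 BeadChips, with 1 array per numbered sample. Each is called a kidney below, although the labels do not say that each number is a separate mouse. The 16 arrays came from 4 groups: 2 WT control kidneys (replicates 3811 and 3812), 2 IL-33-deficient control kidneys (3813 and 3814), 7 WT kidneys after UUO, and 5 IL-33-deficient kidneys after UUO. The obstructed kidneys came from 2 sets of mice, with 3 WT (3818, 3819 and 3820) and 2 IL-33-deficient kidneys (3821 and 3822) in set 1, and 4 WT (3892 to 3895) and 3 IL-33-deficient kidneys (3897 to 3899) in set 2. The set of the control kidneys was not labelled, and they are labelled as controls without treatment, not as sham-operated. The obstruction was a metal clip on the left ureter. Both genotypes were on the C57BL/6J BomTac background, to which the Il33-deficient strain had been backcrossed, and the methods give the age as 8 weeks unless stated otherwise. The labels name no other treatment for any of the 4 groups. Values below are log2 probe intensities, and a difference of 1 on this scale is a doubling. Probes differ in how well they bind, so each test compares arrays for the same gene. The intensity order of the probes is used only to say which are dim and which are brighter than the median gene. Summed intensities of a list give most weight to its bright probes, and they are compared between arrays alone. Where 2 fold changes are given without a group, the first is that of WT and the second that of IL-33-deficient kidneys.

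Amino acids that pass the glomerulus are almost wholly taken back by the proximal tubule. Apical transporters of the brush border, several of which are driven by sodium, carry neutral, acidic and basic amino acids, proline and cystine into the cell, and basolateral exchangers and uniporters pass them on to the blood. Deeper in the kidney, cells of the medulla import betaine, taurine and other osmolytes through related carriers to balance the salt around them. Other family members feed growing or stressed cells with glutamine, serine, glycine and cystine, sit on lysosomes where they take part in sensing amino acids, or clear transmitters at synapses.

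Il33, the targeted gene, had a log2 intensity of 7.62 and 8.02 in the WT controls and a median of 9.44 (8.39 to 9.57) in the 7 WT kidneys after UUO. In IL-33-deficient kidneys it was 6.85 and 6.88 in the controls and 6.80 to 7.02 after UUO, below every WT array, so the genotype labels held for all 16 arrays. The median gene of the table had a mean log2 intensity of 7.05, and 28 of the 55 members were above it. The other 27 members lay below it, where log2 fold changes after UUO stayed between -0.16 and 0.12, and a missing change there says little about the RNA. Proximal tubule markers, the defining genes of the segment in which most of these transporters work, were all above the median gene, with 7 of them measured. Markers of tissue next to the kidney were all below it.

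WT kidneys of set 1 were unlike each other after UUO. In the sums of proximal tubule, injured tubule and leukocyte markers, replicates 3820 and 3818 lay nearest to the controls. The summed linear intensity of the 7 proximal tubule markers was 38455 and 39725 in the WT controls and 38531 in replicate 3820, against 31063 in replicate 3818 and 15619 to 28642 in the other 5 WT kidneys after UUO. The sums for 8 injured tubule markers were 23461 in replicate 3820 and 31382 in replicate 3818, the lowest of the obstructed kidneys, with controls of both genotypes between 6488 and 8157. The leukocyte sum was lowest in replicate 3818 (3526), followed by 3820 (4255). By contrast, the fibroblast sum was 3170 in replicate 3820 but 4642 in replicate 3818, with WT controls at 3144 and 3562. Replicate 3820 also had the highest level among WT kidneys after UUO for 6 of the 10 members with the largest falls. Without replicate 3820, and likewise without replicate 3818, 12 members were called in WT kidneys in place of 11.

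In WT kidneys 11 of 55 members (20%) changed after UUO at an adjusted p under 0.05 in limma, which moderates each gene's variance with that of all genes. Of all genes in the table, 15.2% passed this threshold (6.97% higher, 8.22% lower). The 3 members that rose were Slc6a9, Slc1a4 and Slc6a8, and the 8 that fell were Slc7a8, Slc6a20b, Slc6a12, Slc1a1, Slc7a4, Slc36a1, Slc43a2 and Slc38a9. In IL-33-deficient kidneys 12 of 55 members (21.8%) changed, and the share of all genes was also 21.8% (10.6% higher, 11.2% lower). Slc38a2 and Slc6a8 rose, and Slc6a20b, Slc6a19, Slc7a8, Slc6a13, Slc1a1, Slc6a12, Slc7a4, Slc36a1, Slc38a9 and Slc6a17 fell. By direction, 14.5% of the members fell in WT and 18.2% fell in IL-33-deficient kidneys. Among genes brighter than the median gene, 7 of the 28 members (25.0%) fell in WT kidneys, where 15.3% of such genes did, and 10 of the 28 (35.7%) fell in IL-33-deficient kidneys, where 20.8% did. Whether the members differed from other genes in these shares was not tested.

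The same direction was called in both genotypes for 8 members, of which 1 (Slc6a8) rose and 7 fell, and 13.0% of all genes were called in this way (6.15% higher, 6.80% lower). The median log2 fold change over the 55 members was -0.01 in WT and -0.02 in IL-33-deficient kidneys, with 29 and 32 members below 0, and the medians over all genes were close to 0 too. Neither genotype showed a call for 40 members, and their log2 fold changes lay between -0.21 and 0.30. The WT counts depended on the 2 controls, since without replicate 3811 or without replicate 3812 only 4 members were called. Slc6a12 and Slc7a4 were called without either control. With the obstructed WT kidneys of set 1 alone, Slc6a12 was the only call. In IL-33-deficient kidneys 7 members were called without control replicate 3814.

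**Figure D1:**
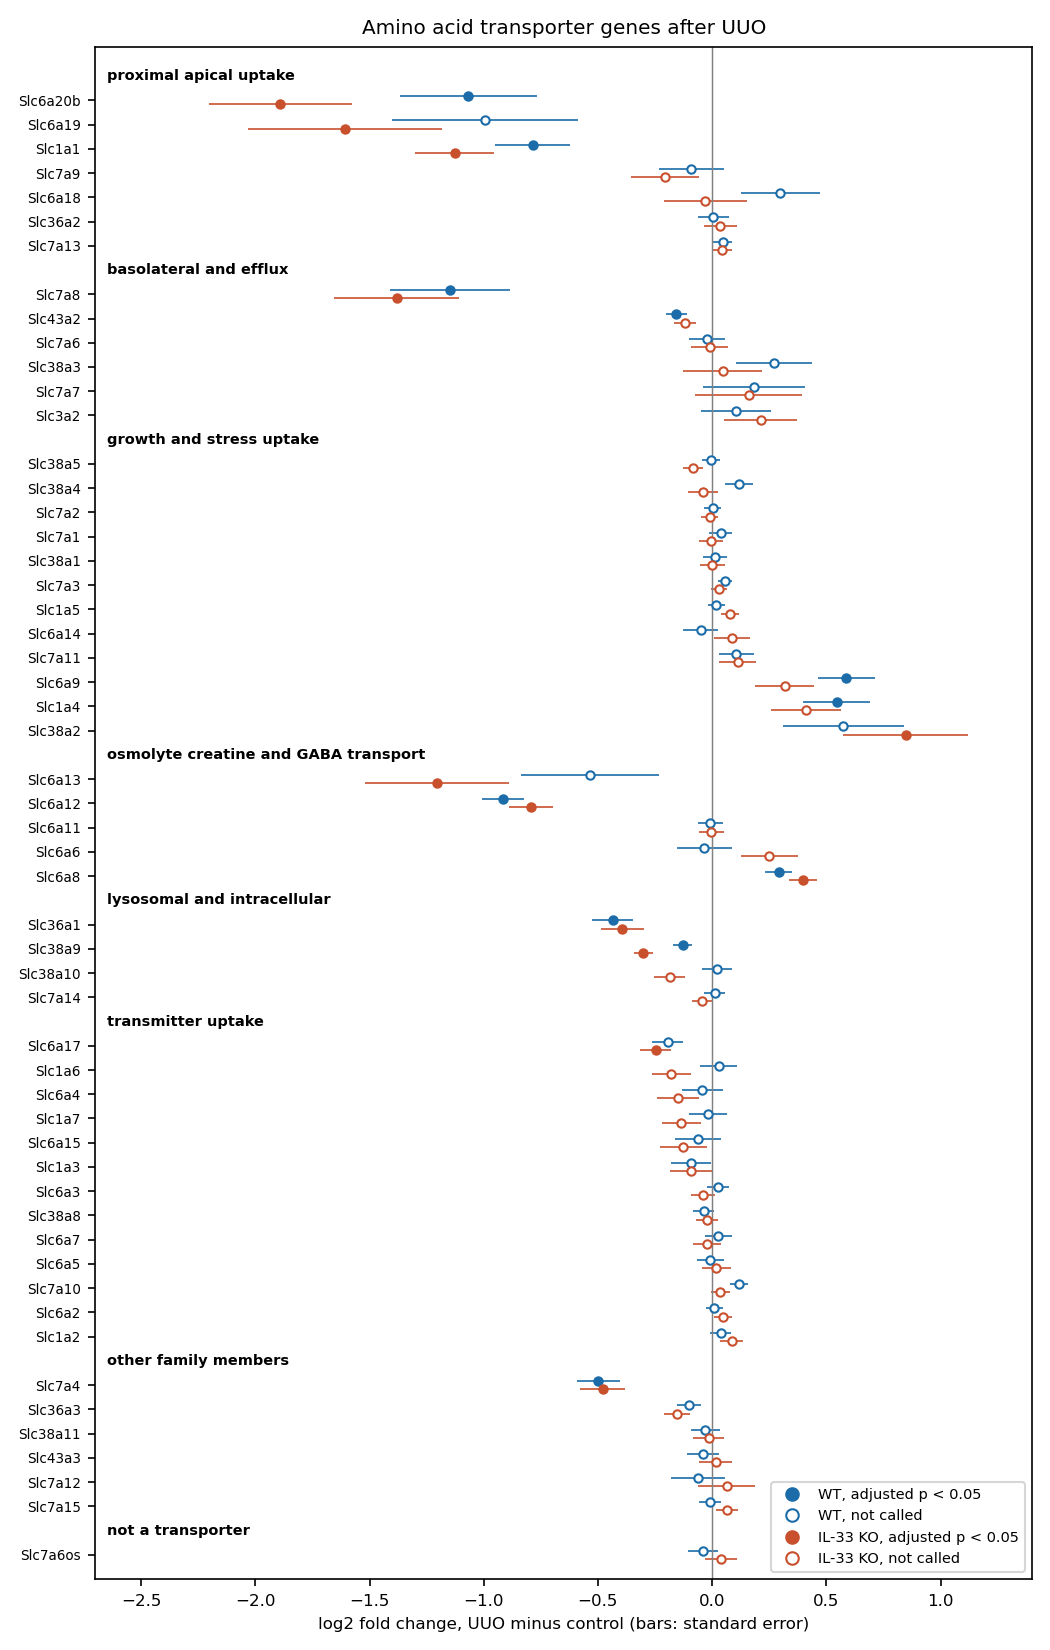
Log2 fold change after UUO (horizontal axis, UUO minus control, bars are standard errors from limma) for the members, grouped by role, in WT (blue) and IL-33-deficient kidneys (orange). Filled points passed an adjusted p under 0.05. The largest changes lie in a few apical, basolateral, osmolyte and growth-related carriers. Slc7a4 and the lysosomal Slc36a1 also fell in both genotypes, and most other members sit close to 0.

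Some apical carriers of the proximal tubule were called and others were not, and their responses were not tested against each other. Of 7 members with this role, 2 fell in WT and 3 fell in IL-33-deficient kidneys, and none rose, where 8.22% and 11.2% of all genes fell. Only 5 of the 7 were brighter than the median gene. Slc6a20b is a relative of Slc6a20a, a carrier of proline and other imino acids. Slc6a20b had log2 intensities of 10.34 and 10.57 in WT controls and a median of 9.40 (8.77 to 10.33) in WT kidneys after UUO. IL-33-deficient kidneys gave 10.47 and 10.70 in controls and 8.32, 8.38, 8.68, 8.84 and 9.24 after UUO. All obstructed kidneys were below all controls, although WT replicate 3820 was below the lower WT control by little. The log2 fold change was -1.07 (SE 0.30, adjusted p = 0.0261) in WT and -1.89 (SE 0.31, adjusted p = 0.000523) in IL-33-deficient kidneys, the latter a level 0.270 times that of the controls. The WT change was -1.22 without replicate 3820. The WT call was lost without either WT control, with set 1 alone and with the 2 WT groups fitted alone, with an adjusted p of up to 0.286.

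Slc6a19, the main apical carrier of neutral amino acids, was 9.98 and 10.29 in WT controls and ranged from 8.30 to 10.44 (median 8.91) in WT kidneys after UUO. Its level was 9.89 and 10.34 in IL-33-deficient controls and 8.21, 8.31, 8.56, 8.70 and 8.75 after UUO, so here the groups did not overlap. WT replicates 3818 (9.89) and 3820 (10.44) stayed near the controls, while the other 5 WT kidneys were at 9.03 or below. The log2 fold change was -0.99 (SE 0.41, adjusted p = 0.126) in WT and -1.61 (SE 0.42, adjusted p = 0.0122) in IL-33-deficient kidneys. The WT change was called without replicate 3820 (-1.21, adjusted p = 0.00839) and not without replicate 3818 (-1.12, adjusted p = 0.0643). The IL-33-deficient change was not called without control replicate 3814.

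Slc1a1, which takes up glutamate and aspartate, had little spread among controls, with 10.85 and 10.91 in the WT pair and 11.01 and 11.04 in the IL-33-deficient pair. After UUO the WT kidneys lay at 9.70 to 10.61 (median 10.12), and the IL-33-deficient ones at 9.78, 9.81, 9.88, 9.99 and 10.05. Every obstructed kidney was below every control. The log2 fold changes were -0.79 (SE 0.16, adjusted p = 0.00498) and -1.13 (SE 0.17, adjusted p = 0.000275). Without replicate 3820 the WT change was -0.87, and the WT call was lost without either WT control and with set 1 alone (adjusted p up to 0.182).

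The other apical members were not called in either genotype. Slc6a18, a carrier of neutral amino acids related to Slc6a19 and its neighbour in the genome, was 10.28 and 10.50 in WT controls and 10.25 to 11.04 (median 10.77) in WT kidneys after UUO. Without IL-33 the level was 10.44 and 10.78 in controls and 10.34, 10.49, 10.58, 10.68 and 10.81 after UUO, and in both genotypes the groups overlapped. Its log2 fold changes were 0.30 (95% interval -0.07 to 0.67, adjusted p = 0.320) and -0.03 (-0.42 to 0.36, adjusted p = 0.950). Whether it differed from Slc6a19 in its response was not tested, and the pair was set side by side after their values were seen.

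Slc7a9, the cystine and basic amino acid exchanger that pairs with the product of Slc3a1, was 10.41 and 10.44 in WT controls and 10.005 to 10.72 (median 10.31) after UUO. In IL-33-deficient kidneys the controls were 10.02 and 10.48 and the obstructed kidneys were 9.93, 9.95, 10.04, 10.11 and 10.18. The groups overlapped, with log2 fold changes of -0.09 (95% interval -0.40 to 0.21) and -0.21 (-0.53 to 0.11), and the WT change was -0.15 without replicate 3820. Slc7a13, an exchanger of aspartate, glutamate and cystine in the late proximal tubule, was dimmer than the median gene.

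**Figure D2:**
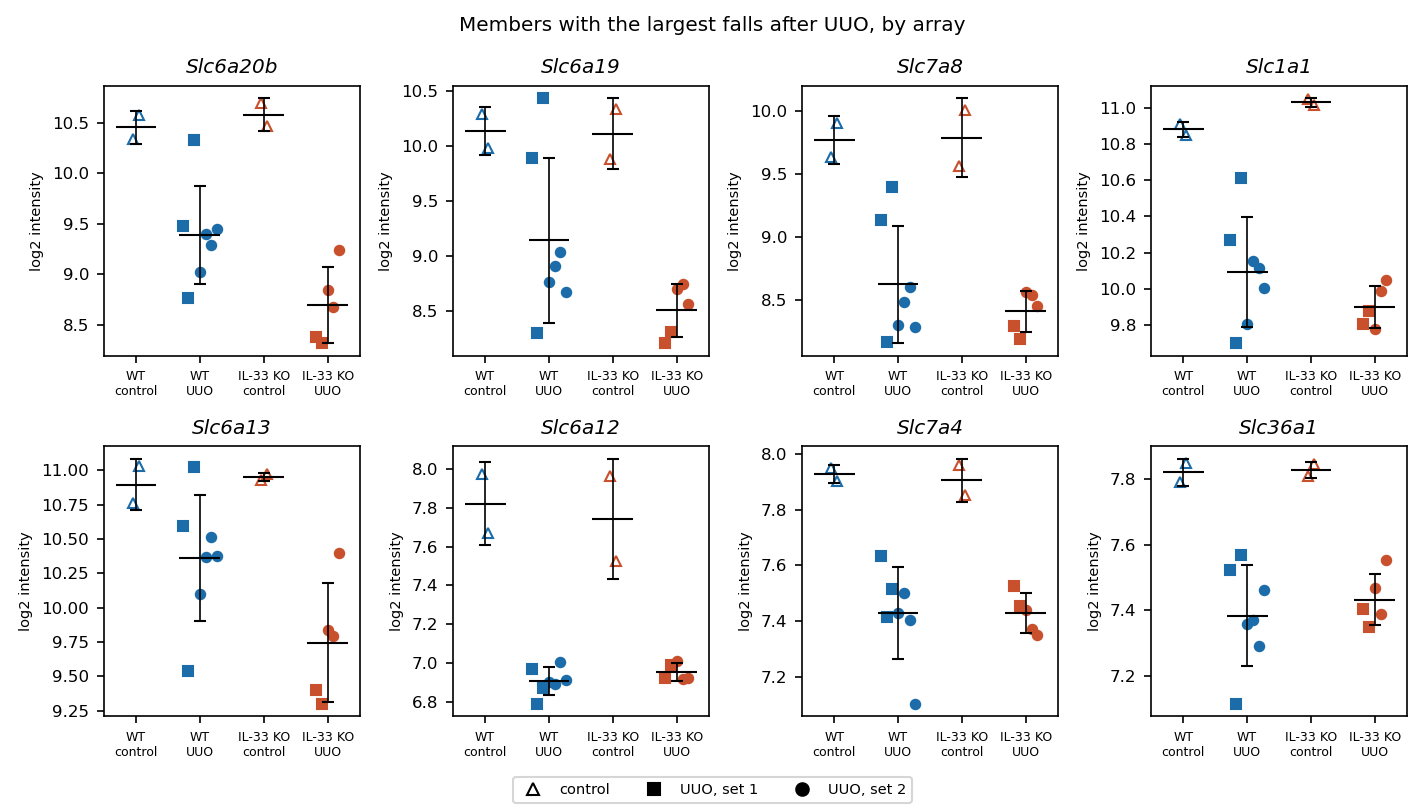
Log2 intensity (vertical axis, a separate range for each gene) of the 8 members with the largest falls in each array of the 4 groups, with group mean (line) and SD (bar). Open triangles are controls, squares are obstructed kidneys of set 1 and circles those of set 2. WT kidneys of set 1 spread widely in most panels, as in Slc6a19 (8.30 to 10.44), and Slc6a12 after UUO lies at the dim end of the table, where Il33 lies in IL-33-deficient arrays (6.80 to 7.02).

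Basolateral and efflux carriers included 1 large fall. Slc7a8, the basolateral exchanger of neutral amino acids that works with the heavy chain Slc3a2, was 9.63 and 9.90 in WT controls and 8.16 to 9.39 (median 8.48) after UUO. In the IL-33-deficient mice its level was 9.56 and 10.01 in controls and 8.19, 8.29, 8.45, 8.54 and 8.56 after UUO. All obstructed kidneys were below all controls, and the 2 highest of them were WT replicates 3820 (9.39) and 3818 (9.13). In WT and IL-33-deficient kidneys the log2 fold changes were -1.15 (SE 0.26, adjusted p = 0.00833) and -1.38 (SE 0.27, adjusted p = 0.00185), or 0.451 and 0.384 times the control level. Without replicate 3820 the WT change was -1.28. The WT call was lost without either WT control and with set 1 alone (adjusted p up to 0.255).

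The other basolateral carriers were not called in both genotypes. Slc7a7, the basolateral exchanger of basic amino acids that also needs Slc3a2, was 9.94 and 10.01 in WT controls and 9.61 to 10.69 (median 10.15) after UUO, with log2 fold changes of 0.18 (95% interval -0.30 to 0.66) and 0.16 (-0.34 to 0.66). Slc3a2 had log2 fold changes of 0.11 (-0.22 to 0.43) and 0.21 (-0.13 to 0.55). Slc38a3, which carries glutamine across the basolateral membrane, had log2 fold changes of 0.27 (-0.09 to 0.63) and 0.05 (-0.33 to 0.42), and 0.20 in WT without replicate 3820. These intervals leave room for moderate changes in either direction. Slc43a2, a uniporter of large neutral amino acids that is named here after its values were seen, fell by 0.16 in WT (SE 0.05, adjusted p = 0.0335) from a level near that of the median gene, and its log2 fold change in IL-33-deficient kidneys was -0.12 (adjusted p = 0.0972).

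Carriers of osmolytes, creatine and GABA included both falls and a rise. Slc6a12, which imports betaine and GABA and is known as an osmolyte carrier of the medulla, was 7.67 and 7.97 in WT controls and 6.79 to 7.01 (median 6.90) in WT kidneys after UUO. In IL-33-deficient kidneys it was 7.53 and 7.96 in controls and 6.92, 6.92, 6.92, 6.99 and 7.01 after UUO. All obstructed kidneys, replicate 3820 included with 6.87, were below all controls. They lay where the deleted Il33 lay in IL-33-deficient arrays (6.80 to 7.02), so the level after UUO was not told from background, and the fold changes are lower bounds on the size of the fall. Its log2 fold changes in the 2 genotypes were -0.92 (SE 0.09, adjusted p = 3.97e-05) and -0.79 (SE 0.10, adjusted p = 6.11e-05). It was the only member called in WT kidneys under all 17 alternatives tried, including each array left out.

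Slc6a13, a GABA and taurine carrier of the basolateral membrane and the neighbour of Slc6a12, was 10.76 and 11.03 in WT controls and 9.54 to 11.03 (median 10.37) after UUO. IL-33-deficient kidneys gave 10.93 and 10.97 in controls and 9.30, 9.40, 9.79, 9.84 and 10.40 after UUO. WT kidneys after UUO reached into the control range, with replicate 3820 at 11.03, and IL-33-deficient ones did not. Without replicate 3820 the WT change was -0.65 (adjusted p = 0.127). The log2 fold changes were -0.54 (SE 0.30, adjusted p = 0.300) and -1.21 (SE 0.31, adjusted p = 0.0115). The call in IL-33-deficient kidneys was lost without either of the 2 controls.

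Starts of these neighbouring genes are shown because both hold a match to TonE, the tonicity element bound by the osmotic stress factor NFAT5, within the bases before the start. The sequences are from RefSeq, build GRCm38.p6, written 5′ to 3′ on the gene's strand and ending at the base before the start, with the match in capitals. The match was present at 1 of 5 listed starts of Slc6a12 (chr6:121342324-121342573, plus strand) and 1 of 3 of Slc6a13 (chr6:121303389-121303638, plus strand).
Slc6a12: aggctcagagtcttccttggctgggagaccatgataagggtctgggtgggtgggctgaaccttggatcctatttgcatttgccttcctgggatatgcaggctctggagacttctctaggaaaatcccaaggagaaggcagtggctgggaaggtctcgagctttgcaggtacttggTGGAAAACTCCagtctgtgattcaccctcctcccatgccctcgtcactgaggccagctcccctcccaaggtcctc
Slc6a13: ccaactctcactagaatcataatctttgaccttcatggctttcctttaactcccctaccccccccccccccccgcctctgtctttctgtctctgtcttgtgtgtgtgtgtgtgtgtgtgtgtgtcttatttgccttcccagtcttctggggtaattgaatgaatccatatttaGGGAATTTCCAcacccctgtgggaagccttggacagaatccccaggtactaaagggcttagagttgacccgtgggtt
TonE, searched on both strands, was found in 5 of 59 member promoters (8.47%, from 38 genes) and in 4.31% of all promoters of the same length. The other members with a match were Slc36a3, Slc38a4 and Slc6a17, of which only Slc6a17 was called after UUO. A match is a description of letters, and nothing about binding was measured.

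Slc6a8, the creatine transporter, changed by little. Its level was 11.25 and 11.36 in WT controls and 11.41 to 11.69 (median 11.60) after UUO, and 11.32 and 11.34 in IL-33-deficient controls against 11.65, 11.73, 11.73, 11.73 and 11.77 after UUO. All obstructed kidneys were above all controls. In WT and IL-33-deficient kidneys the log2 fold changes were 0.29 (SE 0.06, adjusted p = 0.00438) and 0.40 (SE 0.06, adjusted p = 0.000341), 1.22-fold and 1.32-fold, and the WT call was lost without control replicate 3812 and with set 1 alone. Slc6a6, the taurine transporter, stayed between 12.56 and 13.23 over all 16 arrays, with log2 fold changes of -0.04 (95% interval -0.29 to 0.22) and 0.25 (-0.02 to 0.52).

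Of 12 members that feed growing or stressed cells, 2 rose in WT and 1 rose in IL-33-deficient kidneys, and none fell, where 6.97% and 10.6% of all genes rose. Slc38a2, a sodium-coupled carrier of glutamine and alanine that is known to be induced when amino acids are short, was 9.12 and 9.34 in WT controls and 8.82 to 10.15 (median 9.89) after UUO. Without IL-33 the level was 8.73 and 9.39 in controls and 9.76, 9.78, 9.94, 9.95 and 10.11 after UUO. WT replicate 3818, at 8.82, was the only obstructed kidney within or below the control range. Its log2 fold changes in the 2 genotypes were 0.57 (SE 0.26, adjusted p = 0.181) and 0.85 (SE 0.27, adjusted p = 0.0379), the latter 1.80-fold. The WT change was called without replicate 3818, and the IL-33-deficient call was lost without control replicate 3814 or with replicate 3822, 3897 or 3898 of the obstructed kidneys left out.

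Slc1a4, a carrier of alanine, serine and cysteine, was 8.44 and 8.60 in WT controls and 8.81 to 9.58 (median 8.99) after UUO, with no overlap. In the IL-33-deficient mice its level was 8.51 and 8.94 in controls and 9.08, 9.12, 9.13, 9.15 and 9.19 after UUO. The log2 fold changes were 0.55 (SE 0.15, adjusted p = 0.0210) and 0.41 (SE 0.15, adjusted p = 0.0723), and the WT call was lost without either WT control. Slc6a9, a glycine carrier, was 8.74 and 9.10 in WT controls and 9.24 to 9.77 (median 9.54) after UUO. Its levels were 9.26 and 9.32 in IL-33-deficient controls and 9.52, 9.54, 9.55, 9.69 and 9.73 after UUO. In WT and IL-33-deficient kidneys the log2 fold changes were 0.59 (SE 0.12, adjusted p = 0.00542) and 0.32 (SE 0.13, adjusted p = 0.106), and the WT call was lost without control replicate 3811. Levels after UUO were much alike in both genotypes for Slc6a9, and the IL-33-deficient controls were higher than the WT controls by 0.37 on the log2 scale (SE 0.16, unadjusted p = 0.0326 from limma), a difference that did not pass adjustment.

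**Figure D3:**
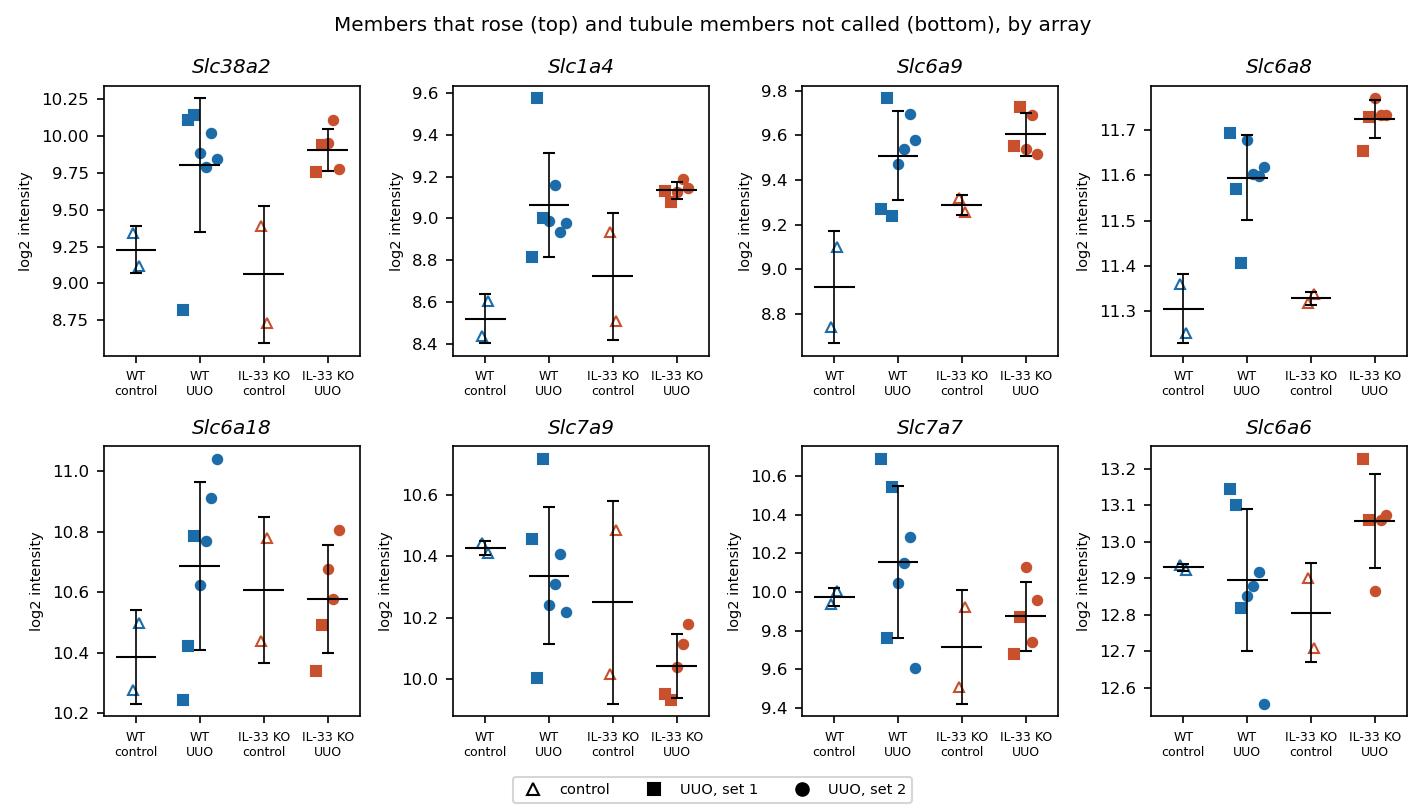
Log2 intensity (vertical axis, a separate range for each gene) in each array of the 4 groups for the members that rose (top row) and for 4 tubule carriers without a call (bottom row), with group mean (line), SD (bar) and symbols for control (open triangles), set 1 (squares) and set 2 (circles). WT replicate 3818 lies alone at 8.82 for Slc38a2, and for Slc6a8 all obstructed kidneys lie above all controls.

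Slc7a11, the cystine and glutamate exchanger, had levels in the range of Il33 in IL-33-deficient arrays or little above it. It was 6.81 and 6.88 in WT controls and 6.85 to 7.10 (median 6.94) after UUO, with a log2 fold change of 0.11 (95% interval -0.06 to 0.27). In IL-33-deficient kidneys it was 6.84 and 6.86 in controls and 6.85, 6.90, 6.92, 6.95 and 7.19 after UUO, with a log2 fold change of 0.11 (-0.06 to 0.28). Slc1a5, Slc38a1, Slc7a1 and the late tubule exchanger Slc7a13 were likewise dimmer than the median gene, with log2 fold changes between -0.0037 and 0.077 over both genotypes.

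Genes linked to the response to amino acid shortage, its sensor kinases among them, are shown here with these carriers. The list was chosen with earlier results of these data known, and amino acid levels were not measured. Of 30 measured genes of this list, 16 rose and 2 fell in WT kidneys, and 18 rose and 2 fell in IL-33-deficient kidneys. The median log2 fold changes were 0.72 and 0.85. Of all genes, dim ones included, 6.97% and 10.6% rose, while 27 of the 30 list genes were brighter than the median gene. Asns, asparagine synthetase, had log2 fold changes of 1.78 (SE 0.26, adjusted p = 0.000601) in WT and 2.15 (SE 0.27, adjusted p = 8.30e-05) in IL-33-deficient kidneys. Chac1, which breaks down glutathione, had 2.11 and 2.60, and Psat1, an enzyme of serine synthesis, had 1.24 and 0.93. Shmt2, the mitochondrial enzyme that converts serine to glycine, fell in both genotypes, by 0.73 and by 1.09. Summed linear intensity of the list was 14414 and 14509 in WT controls and 19640 to 37527 in WT kidneys after UUO, with replicate 3820 the lowest, and 13627 and 13992 in IL-33-deficient controls against 26663 to 33206 after UUO. Of the 12 growth and stress carriers, Slc38a2, Slc1a4 and Slc6a9 were called in at least 1 genotype. The others, Slc7a11 and Slc1a5 among them, were not called, and all of these were dimmer than the median gene. From other roles, the creatine carrier Slc6a8 was called and the heavy chain Slc3a2 was not.

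The letters of the C/EBP-ATF response element, TGATGNAA on either strand, through which ATF4 is known to act, were searched in the same way. They were found in 3 of 59 member promoters (5.08%) and in 3.45% of all promoters of that length. The 2 member genes with the element, Slc7a11 (chr3:50443614-50443863, minus strand, 2 matches) and Slc7a7 (chr14:54417945-54418194, minus strand, 1 match, 2 of 5 starts), are both shown. Neither was called after UUO. The match is in capitals.
Slc7a11: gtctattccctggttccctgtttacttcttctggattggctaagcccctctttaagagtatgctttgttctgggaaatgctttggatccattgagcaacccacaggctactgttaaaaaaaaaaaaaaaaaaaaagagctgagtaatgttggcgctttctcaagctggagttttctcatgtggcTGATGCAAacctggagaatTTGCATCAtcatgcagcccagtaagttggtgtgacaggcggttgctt
Slc7a7: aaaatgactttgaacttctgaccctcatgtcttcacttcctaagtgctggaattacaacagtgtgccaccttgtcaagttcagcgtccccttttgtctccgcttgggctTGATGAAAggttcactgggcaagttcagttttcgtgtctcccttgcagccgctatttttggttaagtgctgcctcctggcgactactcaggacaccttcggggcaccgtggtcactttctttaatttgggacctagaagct
No member that was called after UUO had these letters in the windows searched, which covered promoters of 38 of the 55 members. With so few promoters and a share of 3.45% over all promoters, this absence says little. Binding of ATF4 was not measured.

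Of 4 lysosomal and intracellular members, Slc36a1 and Slc38a9 fell in both genotypes, as 6.80% of all genes did, and the others were not called. Slc36a1, which exports small neutral amino acids from lysosomes with protons, was 7.79 and 7.85 in WT controls and 7.12 to 7.57 (median 7.37) after UUO, and 7.81 and 7.84 in IL-33-deficient controls against 7.35, 7.39, 7.40, 7.47 and 7.55. The groups did not overlap, and the log2 fold changes were -0.44 (SE 0.09, adjusted p = 0.00440) and -0.39 (SE 0.09, adjusted p = 0.00626). The WT call was lost without control replicate 3812 and with set 1 alone, and the IL-33-deficient call without control replicate 3814 and with set 1 alone. Slc38a9, the lysosomal arginine sensor, was 7.16 and 7.20 in WT controls and 6.99 to 7.10 (median 7.04) after UUO, and 7.36 and 7.40 in IL-33-deficient controls against 7.02, 7.03, 7.07, 7.11 and 7.15. Its log2 fold changes in the 2 genotypes were -0.13 (SE 0.04, adjusted p = 0.0419) and -0.30 (SE 0.04, adjusted p = 0.000149). The WT change was called under 7 of 17 alternatives, and its levels after UUO overlapped those of Il33 in IL-33-deficient arrays. After UUO the genotypes differed by 0.03 (95% interval -0.04 to 0.10), and among the controls by 0.20 (SE 0.05, unadjusted p = 0.00120 from limma), which did not pass adjustment.

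Slc7a4, a relative of the basic amino acid carriers whose own transport activity is not settled, was 7.90 and 7.95 in WT controls and 7.10 to 7.63 (median 7.43) after UUO. IL-33-deficient kidneys gave 7.85 and 7.96 in controls and 7.35, 7.37, 7.44, 7.46 and 7.53 after UUO. All obstructed kidneys were below all controls, with log2 fold changes of -0.50 (SE 0.09, adjusted p = 0.00256) and -0.48 (SE 0.10, adjusted p = 0.00240). Of 13 members known from transmitter uptake, Slc6a17, a vesicular carrier of neutral amino acids, was the only one called. The shares of all genes called were 15.2% in WT and 21.8% in IL-33-deficient kidneys. Its log2 fold changes were -0.20 (adjusted p = 0.0616) in WT and -0.25 (adjusted p = 0.0169) in IL-33-deficient kidneys. The IL-33-deficient call of Slc6a17 was lost without either of the IL-33-deficient controls and with set 1 alone.

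Proteins that work with these carriers, or carry amino acids and peptides from other families, formed a list of 15 genes. None rose, and 2 fell in WT and 4 in IL-33-deficient kidneys, where 8.22% and 11.2% of all genes fell. Slc15a2, which takes up small peptides in the late proximal tubule, fell by 1.16 (SE 0.18, adjusted p = 0.000940) and by 1.05 (SE 0.19, adjusted p = 0.00102), and Slc25a12, a mitochondrial aspartate and glutamate carrier, fell by 0.58 and by 0.89. Tmem27, or collectrin, the partner that brings Slc6a19 to the brush border, had log2 fold changes of -0.38 (adjusted p = 0.114) in WT and -0.80 (adjusted p = 0.00180) in IL-33-deficient kidneys, and is named here after its values were seen.

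Markers of several cell types also changed after UUO. In whole tissue, fewer cells of a type and less RNA per cell cannot be told apart. Of 7 proximal tubule markers, 1 fell in WT (Hnf4a) and 6 fell in IL-33-deficient kidneys, and none rose. The markers not called in WT had log2 fold changes from -0.23 (Lrp2) to -0.78 (Aqp1) there. For these counts and those below, 8.22% of all genes fell and 6.97% rose in WT. In IL-33-deficient kidneys 11.2% fell and 10.6% rose. The summed linear intensity of the proximal tubule markers was 38455 and 39725 in WT controls and 15619 to 38531 in WT kidneys after UUO. It was 38957 and 39667 in IL-33-deficient controls and 11087 to 21066 in IL-33-deficient kidneys after UUO. Of 8 injured tubule markers, 7 rose in WT and 8 in IL-33-deficient kidneys, with sums after UUO of 23461 to 48213 and 38758 to 48182. Leukocyte markers, 12 in all, included 3 that rose and 1 that fell in WT and 6 that rose and 1 that fell in IL-33-deficient kidneys, with sums of 2742 and 2900 in WT controls against 3526 to 7269, and 2363 and 2593 in IL-33-deficient controls against 4838 to 7425. Thick limb markers fell in both genotypes for 2 of 4, collecting duct markers for 2 of 5 and podocyte markers for 1 of 2, while distal convoluted tubule markers fell for 2 of 3 in WT and 1 of 3 in IL-33-deficient kidneys. Fibroblast markers rose for 4 of 7 in WT and 5 of 7 in IL-33-deficient kidneys, and of 5 endothelium markers 0 and 1 fell. The part of these shifts in the transporter changes was not tested. Relative to the control mean, the median of the 7 members that fell in both genotypes was -0.27 in WT replicate 3820, -0.61 in 3818, -0.73 to -1.03 in the other WT kidneys and -0.73 to -0.83 in the IL-33-deficient kidneys.

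**Figure D4:**
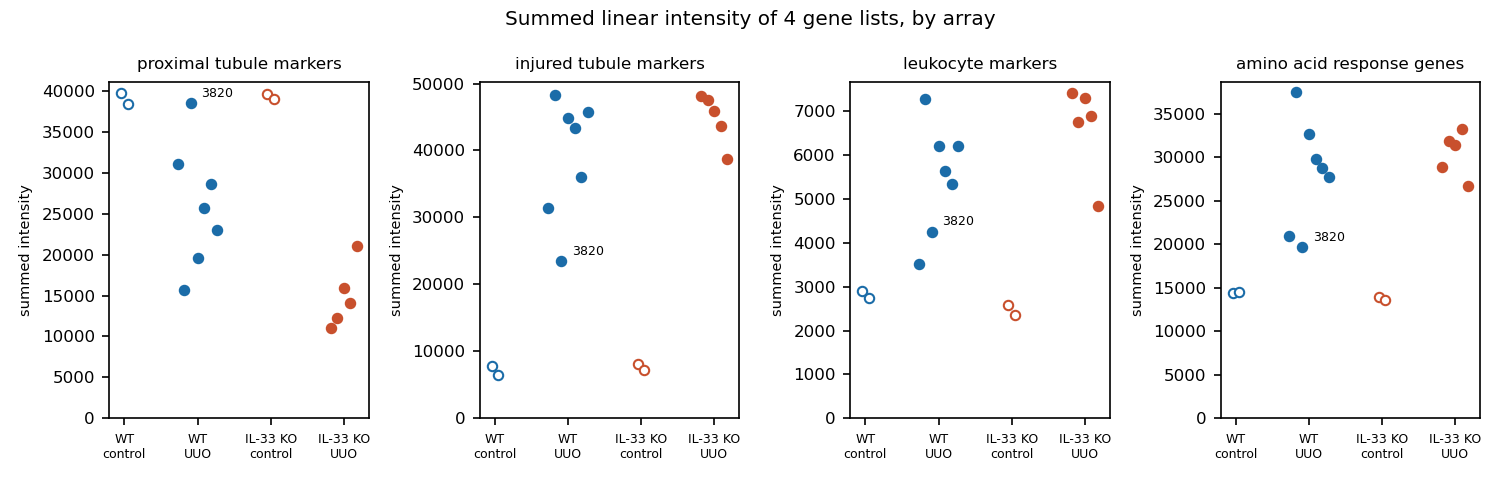
Summed linear intensity (vertical axis, from 0) of 4 gene lists in each array of the 4 groups, with open circles for controls, filled circles for obstructed kidneys and WT replicate 3820 marked. For proximal tubule markers replicate 3820 (38531) lies at the level of the controls, and for injured tubule markers it is the lowest obstructed kidney (23461).

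IL-33-deficient and WT kidneys after UUO were compared over the 12 obstructed kidneys, with all 7 WT arrays and the threshold of the study, an unadjusted p under 0.05 together with an adjusted p under 0.25 and a change over 1.3-fold. None of the 55 members passed, and 2 genes in the whole table did (0.0110%). At an unadjusted p under 0.05 in limma, 7 members differed, where 10.3% of all genes did. Slc6a8 was higher in IL-33-deficient kidneys (5.55% of all genes were), and Slc6a20b, Slc7a9, Slc6a4, Slc38a3, Slc6a13 and Slc1a6 were lower (4.78% of all genes were). None of the members had groups without overlap, against 0.756% of all genes. Without WT replicate 3819, Slc6a20b, Slc6a13 and Slc38a3 passed the threshold, as 1.69% of all genes then did, and Slc6a20b passed when the genes brighter than the median gene were tested alone, as 1.85% of these did.

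The largest difference was that of Slc6a20b, at -0.70 on the log2 scale in IL-33-deficient minus WT kidneys (SE 0.23, adjusted p = 0.346), and at -0.54 without WT replicate 3820. All 5 IL-33-deficient kidneys were below the WT median, and the difference was -1.18 in set 1 and -0.37 in set 2. Slc6a13 differed by -0.61 (SE 0.24, adjusted p = 0.402), with -1.04 in set 1, -0.33 in set 2 and -0.50 over both sets without replicate 3820. Slc6a19 differed by -0.64 (SE 0.31, adjusted p = 0.523), with -1.28 and -0.17 in the sets and -0.42 without replicate 3820. The differences of these carriers were each larger in set 1. For Slc6a19, 2 of the 3 WT kidneys of set 1 had levels near the controls. WT means in sets 1 and 2 were 9.53 and 9.29 (Slc6a20b), 10.39 and 10.34 (Slc6a13), and 9.54 and 8.84 (Slc6a19). The IL-33-deficient means were 8.35 and 8.92, 9.35 and 10.01, and 8.26 and 8.67 in the same order. What made the sets differ was not tested.

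Slc7a9 differed by -0.29 (SE 0.10, adjusted p = 0.346), with -0.45 in set 1, -0.18 in set 2 and -0.23 without replicate 3820. Slc38a3 differed by -0.34 (SE 0.13, adjusted p = 0.402), with -0.57 and -0.19 in the sets and -0.27 without replicate 3820. Slc6a8 was higher by 0.13 (SE 0.05, adjusted p = 0.362), with 0.13 in set 1 and 0.12 in set 2, and all 5 IL-33-deficient kidneys were above the WT median. Slc6a4, the serotonin carrier, and Slc1a6, a glutamate carrier of neurons, differed by -0.18 (adjusted p = 0.382) and -0.14 (adjusted p = 0.471). Several of these members are named because their p was among the smallest in this comparison, so their differences are a description. Slc7a8 and Slc1a1, among the largest falls after UUO, differed between the genotypes by -0.21 (95% interval -0.64 to 0.22) and -0.19 (-0.48 to 0.09), and without replicate 3820 by -0.085 and -0.11. For Slc7a8 the sign was opposite in the 2 sets (-0.65 and 0.10). Proximal tubule markers, of which none passed the threshold, had a median difference of -0.46 in the same direction, and their part in these differences was not tested.

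**Figure D5:**
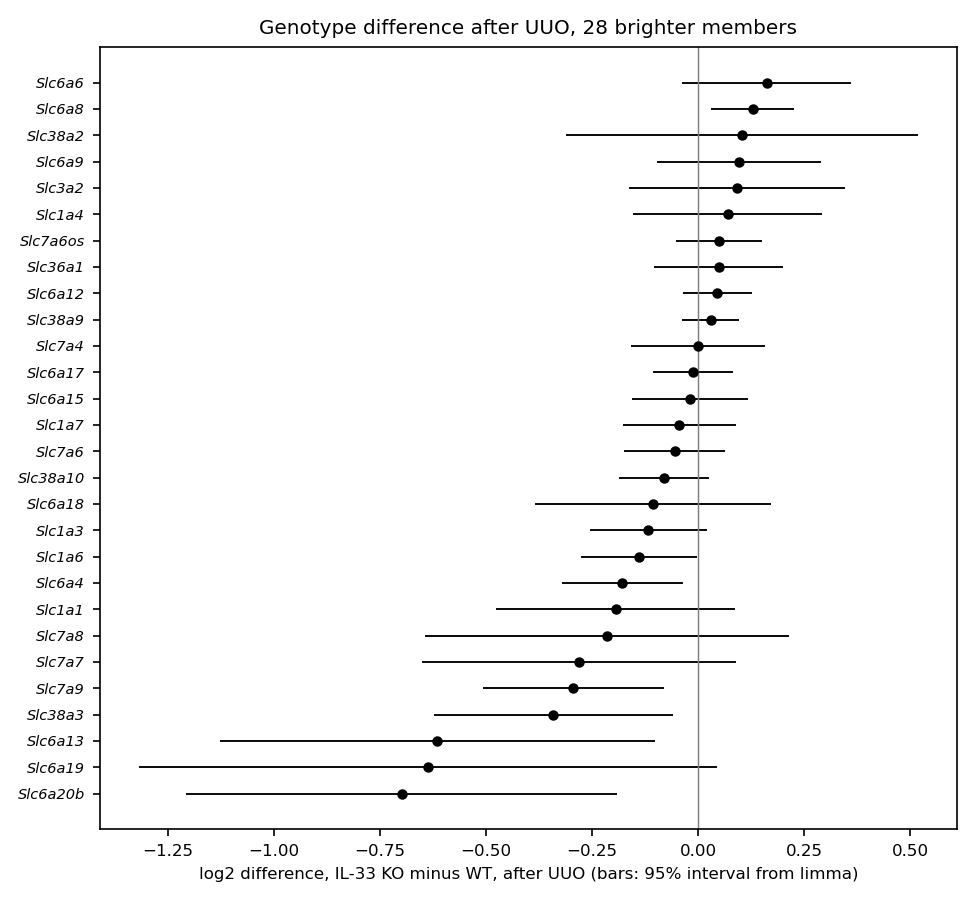
Log2 difference after UUO, IL-33-deficient minus WT (horizontal axis, bars are 95% intervals from limma over 12 obstructed kidneys), for the 28 members brighter than the median gene. Slc6a20b is lowest at -0.70, Slc6a6 is highest at 0.16, and no member passed the study's threshold.

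The response to UUO did not pass a test of difference between the genotypes for any member. None of the 55 had an adjusted p under 0.05 for the interaction in limma, as none of all genes did (0%), and 2 members, Slc38a9 and Slc38a10, had an unadjusted p under 0.05, where 4.74% of all genes did. The response of IL-33-deficient minus that of WT kidneys was -0.82 (95% interval -1.75 to 0.10, adjusted p = 0.973) for Slc6a20b, -0.61 (-1.87 to 0.64) for Slc6a19 and -0.67 (-1.60 to 0.26) for Slc6a13. It was -0.17 (-0.30 to -0.05, adjusted p = 0.973) for Slc38a9. The intervals of the first 3 are wide, and a call in 1 genotype alone is no sign of a different response. Slc38a10, an intracellular family member, and Slc1a6 each had -0.21, both with an adjusted p of 0.973.

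In control kidneys no member differed between the genotypes at an adjusted p under 0.05 in limma, as no gene of the table did (0%). At an unadjusted p under 0.05 there were 3 members, Slc38a9, Slc38a4 and Slc6a9, all higher in IL-33-deficient controls, where 3.66% of all genes passed in either direction and 1.85% upwards.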

How the data were processed

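Kidney RNA was amplified, biotin-labelled and hybridised to Illumina MouseRef-8 v2 BeadChips at a genomics consortium, and the authors imported the arrays with beadarray; the submitters' processing notes name BeadStudio 2. The deposited values are linear intensity values between 95.5 and 23471, 1 for each of 18132 gene symbols, and array medians of 132 to 133 show that they had been scaled between arrays before deposit. Background correction, scaling method, the joining of probes and detection calls are not given in the sources used here, so a dim value may be background. Intensities were quantile-normalised over the 16 arrays, log2-transformed and fitted with limma 3.58.1 (R 4.3.3), and p-values were adjusted over the whole table by the Benjamini-Hochberg method. Groups came from the sample labels. The 2 responses to UUO, their interaction and the control comparison used 1 model of 4 groups. The genotype comparison after UUO used the 12 obstructed kidneys and the study's threshold. The study's own contrast had 5 IL-33-deficient and 4 WT kidneys, and which WT kidneys these were is not given in the sources used here, so all 7 were used. A planned exact permutation test of single members over the 12 kidneys is not reported, because it ignores the set of mice and several of these members were named for their small p in the same arrays. The labels do not say that each number is a separate mouse, and p-values measure the spread between these arrays. The number of arrays limits the precision.

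Genes named in the text were Il33, members with the 10 largest rises and falls among those called in at least 1 genotype, the 5 with the smallest p for genotype and for interaction, a list of carriers known from the kidney, and list genes called in both genotypes. The members, lists and tests were chosen with earlier results of these data known. All 55 member symbols matched RefSeq, and symbols are written in mouse style where the table has capitals. Alternatives were no further normalisation, median centring, a variance trend, array weights, brighter genes alone, each set alone, the set as a block, other groups of arrays in the fit, and each array left out. The code was tested on simulated data. One member that the rule names is counted among the 55 but not reported here. Each array has 1 value for each gene, so differences between transcripts of a gene were not measured.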

Additional observations from a re-analysis of the deposited data

Results flagged for a closer look

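Among 58 groups of obstructed kidneys searched, 3 held an array far from the rest, where chance gives about 1 in 20. Slc38a2 was 8.82 in WT replicate 3818 after UUO, with the nearest of the other 6 at 9.79 and the farthest at 10.15. Il33 in the same kidney was 8.39, with the others between 9.10 and 9.57. Slc7a11 was 7.19 in IL-33-deficient replicate 3898, with the other 4 between 6.85 and 6.95. No cause was tested.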

How the results depend on the processing

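No paired analysis was possible because each array has a number of its own and the groups share none. The set of mice is labelled for the obstructed kidneys alone, and with it as a block no member and 1 gene passed between the genotypes, and the differences of 10 members moved by at most 0.0069. Without further normalisation the WT count was 11 members and the IL-33-deficient count 13, and with median centring they were 11 and 12. In WT kidneys the count was 1 with set 1 alone (all of it lower, 0 higher), 7 with the 2 groups compared alone (5 lower) and 4 to 12 when each array was left out (1 to 4 higher, 3 to 9 lower). It rose with set 2 alone (6 higher, 10 lower) and with array weights (4 higher, 10 lower). In IL-33-deficient kidneys 12 members became 7 to 12 with each array left out (1 to 3 higher, 6 to 11 lower). With set 1 alone 1 was higher and 7 were lower. The count rose with set 2 alone (5 higher, 11 lower), with the 2 groups compared alone (4 higher, 12 lower) and with array weights (3 higher, 11 lower). Between the genotypes after UUO the count of 0 became 1 among brighter genes alone and 0 to 3 with each array left out. The interaction and the control comparison gave 0 under each alternative. Over the whole table, the WT count of 2754 fell to 188 with set 1 alone, 1778 with the 2 groups compared alone, 1053 without WT control 3811 and 799 without 3812, and rose to 4241 with set 2 alone. The 3955 in IL-33-deficient kidneys fell to 2258 with set 1 alone, 2281 without control 3813 and 2576 without 3814. The 2 between genotypes after UUO became 80 with array weights, 168 among brighter genes, 81 with set 2 alone, 127 with the 4 groups in 1 model, and 0 to 307 otherwise.

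Among single members, 900 values kept direction and call, 46 lost the call, 23 gained it and 13 changed sign, all 13 without a call. With set 1 alone the WT changes of Slc3a2 and Slc6a6 were -0.071 and 0.091, and the IL-33-deficient changes of Slc38a3 and Slc3a2 were -0.19 and -0.035. With set 2 alone, Slc6a18 was 0.079 in IL-33-deficient kidneys and Slc7a8 differed between genotypes by 0.10. With each array left out, Slc3a2 ranged from -0.031 to 0.24 and Slc6a6 from -0.077 to 0.022 in WT, and in IL-33-deficient kidneys Slc7a9 ranged from -0.44 to 0.027, Slc38a3 from -0.022 to 0.12, Slc6a18 from -0.20 to 0.14 and Slc7a7 from -0.047 to 0.37. The causes were not tested. In IL-33-deficient kidneys Slc6a8, Slc6a20b, Slc7a8, Slc1a1, Slc6a12 and Slc38a9 were called under all 15 alternatives.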
